A study of Mus musculus with 4 samples.

Results

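The genes described here were 47 cell cycle and proliferation genes of the mouse, taken by symbol from the gene lists of the deposited single-nucleus count matrices, which held 44628 gene identifiers in all. The list joined genes of S phase, when DNA is copied, with genes of G2 and M phase, when a cell prepares for and carries out division. All 47 symbols were found once each, and all 47 identifiers matched the mouse gene annotation. The symbols were chosen with earlier results of these data known.

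The study profiled nuclei from mouse hearts in 4 libraries made on a droplet-free microwell platform (BD Rhapsody). Both Pkp2 cKO libraries came from mice with floxed alleles of Pkp2 (PKP2fl/fl) and the MCM cre/+ transgene, and both control libraries from MCM cre/+ mice, whose genotype tag read wt. Every mouse, controls included, received tamoxifen, was 8 weeks old and was sampled 2 weeks after tamoxifen. Each library pooled 2 mice, and nothing in the labels pairs a Pkp2 cKO pool with a control pool. The product of Pkp2, plakophilin-2, belongs to the desmosomes that hold cardiac muscle cells together. MCM is a tamoxifen-dependent Cre, and the labels give it with no promoter.

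Dividing cells switch these genes on in waves. Replication genes such as the Mcm helicase subunits, ribonucleotide reductase (Rrm1, Rrm2) and thymidylate synthase (Tyms) rise before and during S phase. Genes for the mitotic spindle, the kinetochore, the condensin complex and the cytokinesis machinery rise in G2 and M phase and fall after division. In the adult heart most cardiomyocytes have left the cell cycle, whereas fibroblasts, endothelial cells and macrophages keep some capacity to divide.

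After filtering, 3642 and 6813 nuclei of the Pkp2 cKO libraries and 2805 and 6024 nuclei of the control libraries were analysed. The 27 clusters were built without the 47 genes and without 175 other cell cycle genes, and were named from marker genes, so that each class is a cardiomyocyte-like, fibroblast-like, endothelial-like, mural-like or macrophage-like group. The labels call the cell type cardiomyocyte in all libraries, but cardiomyocyte-like nuclei made up 32.6% and 23.8% of Pkp2 cKO nuclei and 52.2% and 42.5% of control nuclei. Total depth ran from 13491201 to 40536562 unique molecular identifiers (UMIs) per library, and any pair of libraries shared at most 2 cell barcodes. Xist gave 13 and 28 UMIs in the Pkp2 cKO libraries and 7 and 22 in the control libraries. Y-linked genes gave 9053 and 17307 UMIs in the Pkp2 cKO libraries and 5625 and 13669 in the control libraries, although the labels describe each pool as 1 male and 1 female. Pkp2 itself stood at 627 and 594 CPM (UMIs per 1000000 UMIs of the class in that library) in Pkp2 cKO cardiomyocytes and 557 and 537 CPM in control cardiomyocytes, so gene-level counts do not show the deletion. Esr1 stood at 3628 and 3373 CPM in Pkp2 cKO cardiomyocytes and 75.8 and 62.1 CPM in control cardiomyocytes. Whether the libraries differ in the Cre transgene as well as in Pkp2 cannot be told apart here.

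Over all nuclei together, the 47 genes were higher in both Pkp2 cKO libraries. Their summed level, the UMIs of all 47 per 1000000 UMIs, was 599 and 606 CPM in Pkp2 cKO nuclei and 403 and 429 CPM in control nuclei. The means were 603 ± 5.16 CPM and 416 ± 18.2 CPM (SD, n = 2 each), a ratio of 1.45, and the groups did not overlap. Nuclei in which at least 3 of the 47 genes had a UMI numbered 279 of 3642 and 542 of 6813 in Pkp2 cKO libraries, or 7.66% and 7.96%. In control libraries they numbered 84 of 2805 and 288 of 6024, or 3.00% and 4.78%. Such nuclei are called positive nuclei below. The libraries also differed in their shares of cell classes, which differ in level. Smc4, a subunit of the chromosome-condensing condensin complex, gave the most UMIs of the 47 genes, 23.8% of them over all libraries. That figure is a count of molecules and not a level per length.

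Of these 5 classes, macrophages had the highest summed level and cardiomyocytes the lowest in every library. Macrophages stood at 1417 and 1450 CPM in Pkp2 cKO nuclei and 1819 and 1976 CPM in control nuclei. Cardiomyocytes stood at 193 and 177 CPM in Pkp2 cKO nuclei and 183 and 192 CPM in control nuclei. Fibroblasts, endothelial cells and mural cells (pericytes and smooth muscle) lay between, and their ranges overlapped one another. Among them, fibroblasts had 1128 and 899 CPM in Pkp2 cKO nuclei and 556 and 527 CPM in control nuclei. Endothelial nuclei had 886 and 821 CPM in Pkp2 cKO libraries and 1391 and 821 CPM in control libraries. Mural nuclei had 1030 and 532 CPM in Pkp2 cKO libraries and 624 and 566 CPM in control libraries. Only in fibroblasts were both Pkp2 cKO libraries above both control libraries, and only in macrophages were both below; in the other classes of these 5 the groups overlapped.

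**Figure D1:**
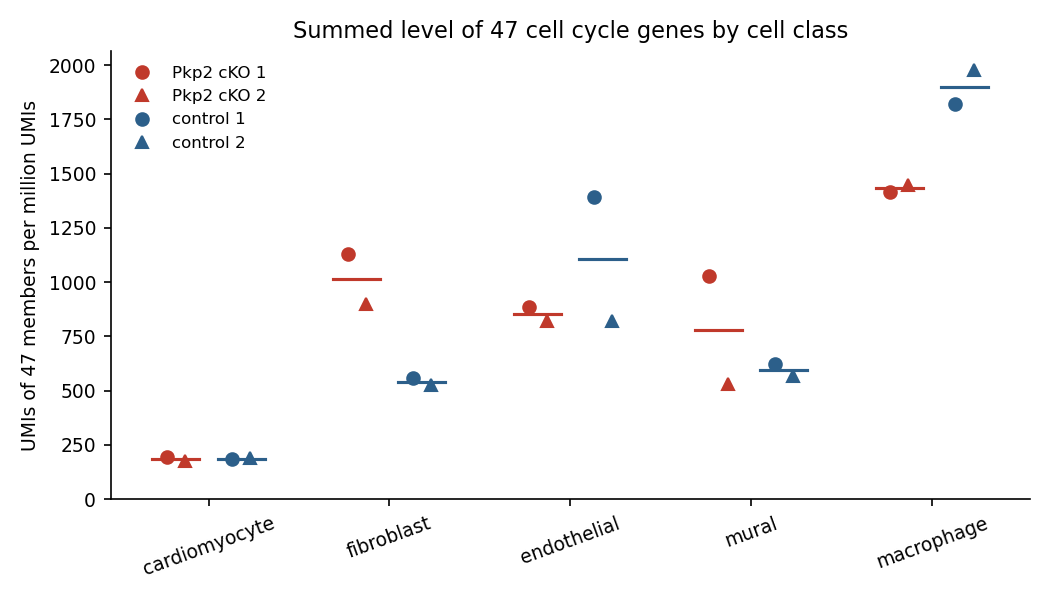
Summed level of the 47 cell cycle genes (CPM, vertical axis) in 5 cell classes, with 1 point per library and a line at each group's mean (n = 2 libraries each). Pkp2 cKO fibroblasts (1128 and 899 CPM) lie above control fibroblasts (556 and 527 CPM), and Pkp2 cKO macrophages (1417 and 1450 CPM) lie below control macrophages (1819 and 1976 CPM).

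The share of positive nuclei moves with depth, since a deeper nucleus shows more genes. In fibroblasts it was 9.28% and 9.25% (59 of 636 and 131 of 1416 nuclei) in Pkp2 cKO libraries and 1.83% and 2.58% (8 of 438 and 30 of 1161) in control libraries. Median depth was 1448.5 and 2099.5 UMIs per fibroblast nucleus in Pkp2 cKO libraries and 1066.5 and 1575 in control libraries. After every nucleus was thinned at random to 1000 UMIs, with shallower nuclei left out, the fibroblast share was 3.68% and 2.56% in Pkp2 cKO libraries and 0.772% and 0.462% in control libraries. The exact 95% binomial intervals of the thinned shares were 2.23% to 5.69% and 1.79% to 3.54% in Pkp2 cKO libraries and 0.0937% to 2.76% and 0.150% to 1.07% in control libraries; they cover counting error only. Thinning left out 120 and 49 Pkp2 cKO fibroblast nuclei and 179 and 78 control fibroblast nuclei. The groups stayed apart at this depth. At 2000 UMIs they overlapped, at 13.5% and 7.02% in Pkp2 cKO libraries and 10.5% and 2.29% in control libraries, where only 19 nuclei of the first control library were deep enough.

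At 1000 UMIs the thinned shares separated the groups in no other class of the 5. At 2000 UMIs they separated in cardiomyocytes, at 0.790% and 0.507% in Pkp2 cKO libraries and 0.416% and 0.488% in control libraries. They also did in mural nuclei, with 7 of 64 and 16 of 246 positive in Pkp2 cKO libraries and 0 of 17 and 8 of 159 in control libraries. Macrophage nuclei were positive in 15.9% and 15.3% in Pkp2 cKO libraries and 9.54% and 14.4% in control libraries before thinning. After thinning the macrophage shares were 11.4% and 7.18% in Pkp2 cKO libraries and 11.7% and 9.09% in control libraries. The unthinned macrophage share thus ran against the summed level, and no order is read from it. Endothelial shares were 5.87% and 6.14% in Pkp2 cKO libraries and 3.77% and 4.09% in control libraries as counted, and 3.68% and 2.51% against 4.28% and 2.15% after thinning. Mural shares were 6.76% and 5.95% in Pkp2 cKO libraries and 2.67% and 3.22% in control libraries as counted, and 5.17% and 1.20% against 2.26% and 1.30% after thinning. Cardiomyocytes gave 3.87% and 4.62% in Pkp2 cKO libraries and 2.05% and 3.83% in control libraries, at the greatest median depths of the 5 classes (4299 and 5235 UMIs in Pkp2 cKO libraries, 3176 and 3954.5 in control libraries). At 1000 UMIs the cardiomyocyte share was 0.185% and 0.133% in Pkp2 cKO libraries and 0.0714% and 0.161% in control libraries. The thinned fibroblast shares of all 4 libraries lay above these values, although the exact 95% intervals of the control fibroblast shares overlapped those of the control cardiomyocytes, which reached 0.397% and 0.411%. The share that free RNA alone would give was not measured.

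**Figure D2:**
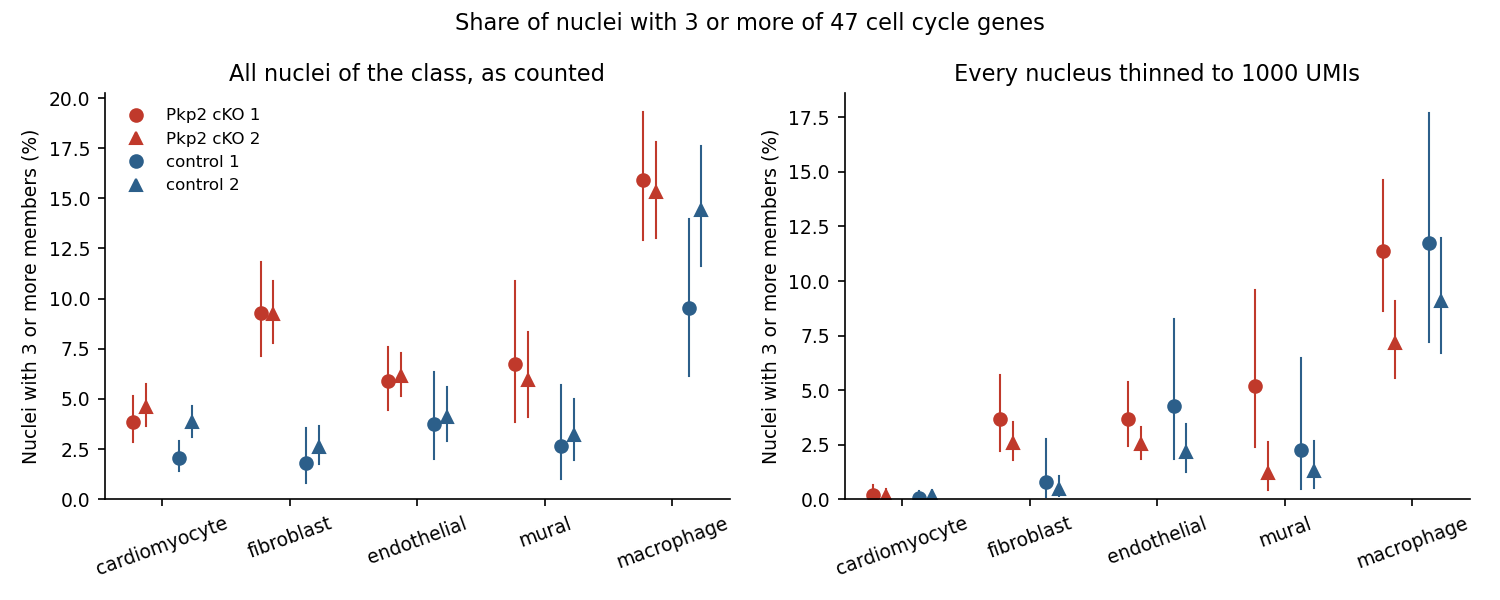
Percent of nuclei with 3 or more of the 47 genes, by class and library, as counted (left) and after thinning every nucleus to 1000 UMIs (right). Bars are exact 95% binomial intervals. The groups separate in fibroblasts in both panels (thinned, 3.68% and 2.56% in Pkp2 cKO libraries and 0.772% and 0.462% in control libraries), while the other classes overlap after thinning to 1000 UMIs.

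Fibroblasts, the cells that make most of the heart's collagen matrix, were the class with the most members past the threshold. UMI counts were summed per library over the fibroblast nuclei and compared with edgeR's quasi-likelihood test, with Benjamini-Hochberg adjustment over all 11982 genes tested and a threshold of 0.05. Of the 47 genes, 33 had enough counts to be tested; 14 rose in Pkp2 cKO fibroblasts and 0 fell. Over all genes tested, 2.85% rose and 1.82% fell. The median log2 fold change of the 33 tested members was 1.41, against 0.01 over all genes tested, and 30 of the 33 were positive. Both Pkp2 cKO libraries lay above both control libraries for 26 of the 33, against 22.9% of all genes tested, and below both for 0, against 20.5%. DESeq2 called 6 members higher, against 0.658% of genes. The 14 members not tested had between 8 and 34 UMIs over the 4 libraries. Only 17 of the 33 tested members reached the filter's cutoff of 6.37 CPM in a control library, and of the 14 that rose only Diaph3 and Cenpf did. The others passed the filter through the Pkp2 cKO libraries alone, so the counts of tested members are given as a description. In sums over nuclei, more nuclei with these RNAs and more RNA per nucleus cannot be told apart. Leaving out the second control library left 5 members called (Anln, Diaph3, Mki67, Prc1 and Top2a), leaving out the second Pkp2 cKO library gave 9 calls, 8 of them among the 14, and a mitochondrial limit of 1% left Diaph3 alone. When the cell cycle genes were kept for clustering, 0 were called; a cluster of 263 nuclei led by these genes then took the name of fibroblasts, and 166 of them were macrophages and 28 fibroblasts in the classes used here.

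Among genes that act on the chromosomes, Top2a encodes the topoisomerase that untangles sister chromatids. In fibroblasts Top2a stood at 53.6 and 39.0 normalized CPM in Pkp2 cKO libraries and 1.95 and 4.28 in control libraries (means 46.3 ± 10.3 and 3.11 ± 1.64, SD, n = 2 each). Its log2 fold change was 3.58 ± 0.45 (SE) with an adjusted p of 0.00016. Mki67 encodes Ki-67, the classical marker of cycling cells, which coats mitotic chromosomes. Mki67 had 35.7 and 28.2 normalized CPM in Pkp2 cKO fibroblasts and 3.90 and 2.67 in control fibroblasts, a log2 fold change of 3.37 ± 0.49 with an adjusted p of 0.000555. For both genes the groups did not overlap. Both passed the low-count filter through the Pkp2 cKO libraries alone, so their adjusted p-values are given as a description. The condensin gene Smc4 did not follow them, at 280 and 246 normalized CPM in Pkp2 cKO fibroblasts and 267 and 228 in control fibroblasts (adjusted p = 0.918). Smc4 alone made up so much of the summed level that without it the fibroblast level was 751 ± 131 CPM in Pkp2 cKO libraries and 302 ± 13.8 CPM in control libraries, a ratio of 2.48 rather than 1.87.

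The genes of cytokinesis, the final separation of the daughter cells, showed the largest ratio of any role in fibroblasts. The 5 genes summed to 127 and 107 CPM in Pkp2 cKO libraries and 15.4 and 15.1 CPM in control libraries, a ratio of 7.66. Diaph3, a formin that builds actin filaments, had 67.2 and 53.7 normalized CPM in Pkp2 cKO fibroblasts and 9.74 and 9.62 in control fibroblasts. Its log2 fold change was 2.62 ± 0.34 with an adjusted p of 0.000218. Prc1, which bundles the microtubules of the central spindle, had 24.7 and 18.9 normalized CPM in Pkp2 cKO fibroblasts and 0 and 3.21 in control fibroblasts (log2 fold change 3.08, adjusted p = 0.0053). Kif23, a kinesin of the centralspindlin complex, had 10.2 and 15.9 normalized CPM in Pkp2 cKO fibroblasts and 3.90 and 1.60 in control fibroblasts (log2 fold change 2.63, adjusted p = 0.0299). Anln, the scaffold anillin of the contractile ring, gave 64 UMIs in Pkp2 cKO fibroblasts and 3 in control fibroblasts, a depth-scaled ratio of 11.7 with a 95% counting interval of 3.81 to 58.0 and an adjusted p of 0.00849. The fifth gene, Ect2, which activates the small GTPase RhoA at the cleavage plane, had 33 UMIs in Pkp2 cKO fibroblasts and 1 in control fibroblasts and was too low to be tested.

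The promoters of the 3 genes with the smallest p in fibroblasts are shown, with short elements that are known from cell cycle genes marked. Top2a lies on chromosome 11 (chr11:98992943-99024189, minus strand), Diaph3 on chromosome 14 (chr14:86655367-87141235, minus strand) and Mki67 on chromosome 7 (chr7:135689784-135716361, minus strand), all in GRCm38. The windows are the 300 bases around each annotated start in RefSeq's annotation of GRCm38.p6, 250 before and 50 after, at chr11:99024140-99024439, chr14:87141175-87141474 and chr7:135716330-135716629. They are read 5′ to 3′ on the gene's strand. Capitals mark TTTGAA (the core of the cell cycle genes homology region), CCAAT (the CCAAT box bound by NF-Y) and GGCGGGA or GGCGCGA (E2F-type sites) on either strand, and no marked elements overlap.
Top2a: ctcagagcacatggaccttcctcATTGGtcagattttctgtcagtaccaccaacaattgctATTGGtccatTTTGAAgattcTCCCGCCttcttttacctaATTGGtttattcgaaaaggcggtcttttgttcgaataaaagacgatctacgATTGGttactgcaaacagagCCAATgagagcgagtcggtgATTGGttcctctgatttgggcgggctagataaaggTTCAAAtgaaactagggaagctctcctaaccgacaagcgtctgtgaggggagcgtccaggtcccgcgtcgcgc
Diaph3: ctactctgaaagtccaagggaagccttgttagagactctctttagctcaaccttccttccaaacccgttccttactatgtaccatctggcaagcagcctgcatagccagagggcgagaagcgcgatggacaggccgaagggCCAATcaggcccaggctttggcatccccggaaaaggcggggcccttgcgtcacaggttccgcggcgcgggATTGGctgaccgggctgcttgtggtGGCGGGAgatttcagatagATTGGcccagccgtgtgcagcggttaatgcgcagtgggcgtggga
Mki67: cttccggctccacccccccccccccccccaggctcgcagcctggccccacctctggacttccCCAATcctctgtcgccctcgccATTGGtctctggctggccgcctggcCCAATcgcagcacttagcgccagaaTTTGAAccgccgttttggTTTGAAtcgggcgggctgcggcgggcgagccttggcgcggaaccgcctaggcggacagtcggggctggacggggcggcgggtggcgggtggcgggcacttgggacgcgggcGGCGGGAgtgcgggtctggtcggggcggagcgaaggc
The Top2a window held 2 matches to TTTGAA, 6 to CCAAT and 1 to GGCGGGA. The Mki67 window held 2, 3 and 1, and the Diaph3 window 0, 3 and 1. None of the 3 held GGCGCGA. Of the 47 genes, 42 had a promoter entry, and 24 of those (57.1%) held TTTGAA, against 18.1% of all 27025 promoters of the same length. CCAAT was in 31 of the 42 (73.8%), against 37.9% of all promoters. GGCGGGA was in 13 (31.0%), against 11.4%, and GGCGCGA in 6 (14.3%), against 3.35%. These are matches of letters and not measurements of binding.

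The spindle genes summed to 104 and 81.5 CPM in Pkp2 cKO fibroblasts and 25.02 and 18.7 CPM in control fibroblasts, a ratio of 4.24. Hmmr, a microtubule-binding protein of the spindle poles, gave 58 UMIs in Pkp2 cKO fibroblasts and 0 in both control libraries, and was at least 10.6-fold higher against a floor of 3 counts over the control group (adjusted p = 0.00327). Tpx2, which activates Aurora A kinase and starts spindle assembly, had 17.9 and 18.6 normalized CPM in Pkp2 cKO fibroblasts and 1.95 and 3.21 in control fibroblasts (log2 fold change 2.63, adjusted p = 0.00797). Kif15, a plus-end directed spindle kinesin, had 19.6 and 13.8 normalized CPM in Pkp2 cKO fibroblasts and 1.95 and 4.28 in control fibroblasts (log2 fold change 2.10, adjusted p = 0.0406). These 3 rose, while the motor Kif11 (15.3 and 9.90 normalized CPM in Pkp2 cKO fibroblasts, 3.90 and 1.60 in control fibroblasts) missed the threshold with an adjusted p of 0.058. Aspm, which focuses spindle poles, also missed it (11.1 and 10.8 against 5.85 and 1.60 normalized CPM, adjusted p = 0.135).

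Kinetochore genes, whose proteins attach chromosomes to the spindle, summed to 109 and 65.1 CPM in Pkp2 cKO fibroblasts and 32.7 and 12.6 CPM in control fibroblasts, a ratio of 3.84. Of them, 3 passed the test: Cenpe, a kinetochore motor (log2 fold change 2.53, adjusted p = 0.00635), Knl1, the scaffold of the outer kinetochore (2.49, adjusted p = 0.0337), and Cenpf (2.15, adjusted p = 0.0194). Cenpf had 41.7 and 19.2 normalized CPM in Pkp2 cKO fibroblasts and 7.79 and 5.88 in control fibroblasts, so that its Pkp2 cKO libraries also differed from each other. Of the cyclins and mitotic kinases, Cdk1, the kinase that drives entry into mitosis, gave 53 UMIs in Pkp2 cKO fibroblasts and 0 in control fibroblasts, at least 9.65-fold higher (adjusted p = 0.00666). Ccnb1, the cyclin that activates it, gave 35 UMIs in Pkp2 cKO fibroblasts and 1 in control fibroblasts, a depth-scaled ratio of 19.1 with a 95% counting interval of 3.21 to 777 (adjusted p = 0.0355). The interval is wide because a single control molecule sets it.

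**Figure D3:**
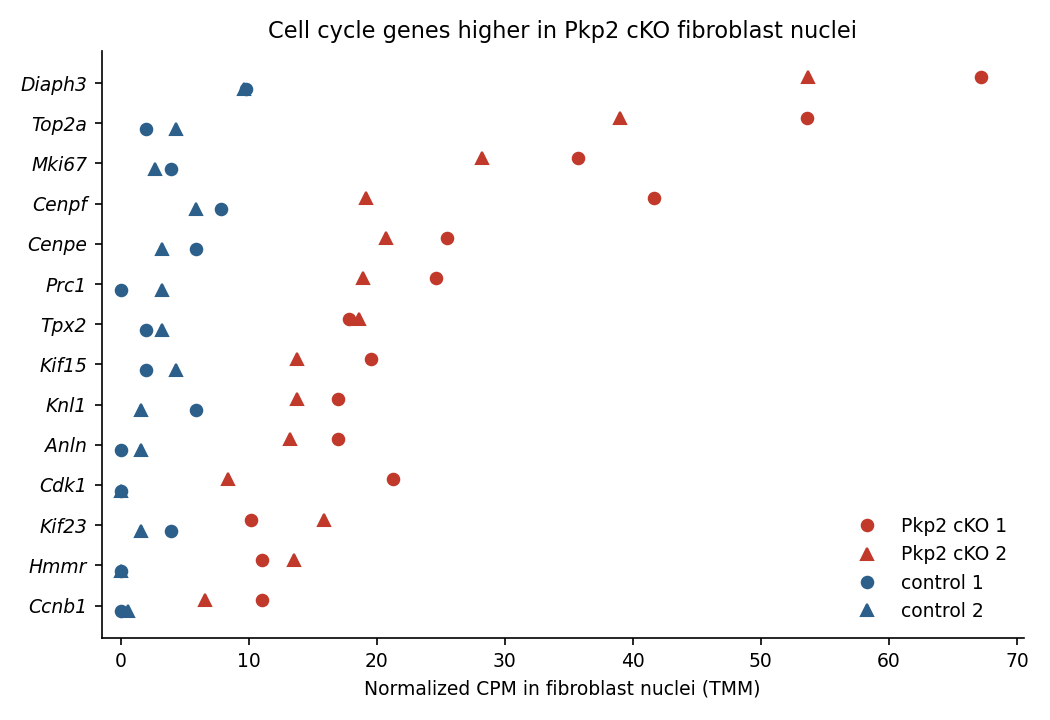
Normalized CPM (horizontal axis) of the 14 cell cycle genes with an adjusted p under 0.05 in fibroblast nuclei, with 1 point per library. For each gene both Pkp2 cKO libraries lie above both control libraries, with Top2a at 53.6 and 39.0 in Pkp2 cKO libraries and 1.95 and 4.28 in control libraries.

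None of the replication genes tested in fibroblasts passed the test. Mcm2, Mcm3, Mcm5 and Rrm2 had too few counts to be tested. They gave 11, 16, 20 and 18 UMIs in Pkp2 cKO fibroblasts and 3, 6, 6 and 1 in control fibroblasts. At a mitochondrial limit of 20%, Rrm2 was called higher. The 11 replication members summed to 205 and 154 CPM in Pkp2 cKO fibroblasts and 115 and 141 CPM in control fibroblasts, a ratio of 1.40. Pola1, the catalytic subunit of DNA polymerase alpha, had 53.6 and 67.2 normalized CPM in Pkp2 cKO fibroblasts and 44.8 and 82.8 in control fibroblasts (adjusted p = 0.887). Tyms had 41.7 and 20.4 normalized CPM in Pkp2 cKO fibroblasts and 19.5 and 10.2 in control fibroblasts (adjusted p = 0.205). The 3 repair and chromatin genes gave a ratio of 1.44, and Ezh2, the methyltransferase of Polycomb repressive complex 2, had 60.4 and 75.0 normalized CPM in Pkp2 cKO fibroblasts and 35.1 and 55.6 in control fibroblasts (adjusted p = 0.434).

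Other cell cycle genes, which are not among the 47, were tested in fibroblasts as well. Their lists were chosen with earlier results of these data known. Genes low in control libraries could pass the filter through the Pkp2 cKO libraries alone, so the counts are given as a description. Of 43 tested genes of a further G2 and M phase list, 7 rose and 0 fell. Of 27 tested genes of a further S phase list, 0 rose and 0 fell. Over all genes tested, 2.85% rose and 1.82% fell. The medians of the log2 fold changes in these lists were 1.02 and 0.07. Ckap2, a spindle protein, had the smallest p of these, at 44.2 and 26.4 normalized CPM in Pkp2 cKO fibroblasts and 0 and 2.14 in control fibroblasts (log2 fold change 4.31, adjusted p = 0.00048). Racgap1, the partner of Kif23 in centralspindlin (log2 fold change 3.12), and Zwilch, a kinetochore checkpoint protein (2.62), rose as well. None of 8 tested G1 cyclins and their kinases and none of 11 tested cell cycle transcription factors passed the test. Of 11 tested inhibitors of the cell cycle, 2 rose. Cdkn1a, a p53 target that inhibits cyclin-dependent kinases, had 76.5 and 78.6 normalized CPM in Pkp2 cKO fibroblasts and 50.7 and 31.5 in control fibroblasts (log2 fold change 1.03 ± 0.28, adjusted p = 0.043). Btg2, an antiproliferative gene, had 16.2 and 39.3 normalized CPM in Pkp2 cKO fibroblasts and 5.85 and 9.62 in control fibroblasts (log2 fold change 1.78, adjusted p = 0.0418).

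At least 1 member was detected in 356 of 636 and 883 of 1416 Pkp2 cKO fibroblast nuclei and in 178 of 438 and 595 of 1161 control fibroblast nuclei. Fibroblast nuclei with 5 or more of the 47 genes numbered 18 and 25 in Pkp2 cKO libraries and 1 and 1 in control libraries. Those with 10 or more numbered 13 and 18 in Pkp2 cKO libraries and 0 and 0 in control libraries. The richest Pkp2 cKO fibroblast nuclei held 28 and 34 of the 47 genes, and the richest control nuclei 6 and 8. Mki67 had a UMI in 16 and 29 of the positive Pkp2 cKO fibroblast nuclei and in 0 and 0 of the positive control nuclei; for Top2a these counts were 14 and 25 in Pkp2 cKO libraries and 0 and 2 in control libraries. The nuclei with 5 or more members carried the fibroblast markers of the design list at 27159 and 18381 CPM in Pkp2 cKO libraries, above the 15734 and 12466 CPM of Pkp2 cKO fibroblast nuclei with under 3 members. Their macrophage markers stood at 205 and 102 CPM, against 7103 and 5926 CPM in Pkp2 cKO macrophage nuclei with 5 or more members. Their endothelial markers stood at 532 and 633 CPM, against 10031 and 9158 CPM in the endothelial counterparts. These fibroblast nuclei had median depths of 4116 and 4320 UMIs, against 1405 and 2024 in Pkp2 cKO fibroblast nuclei with under 3 members. The same marker lists had named the clusters.

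**Figure D4:**
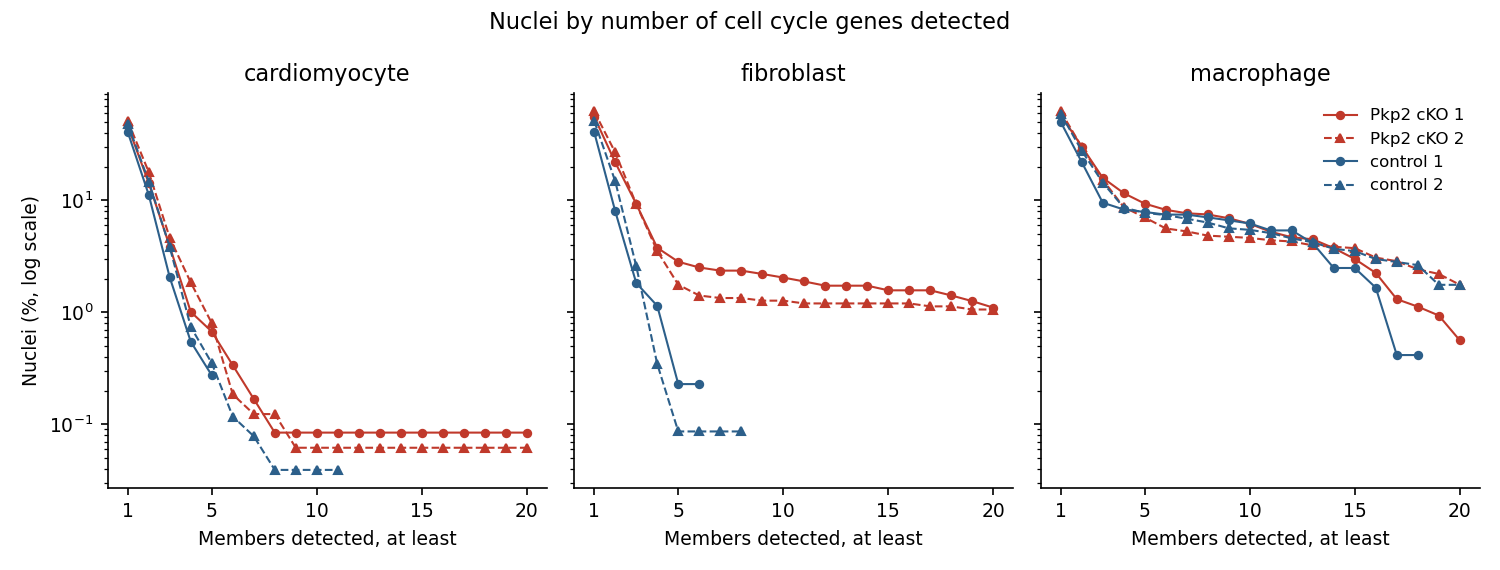
Percent of nuclei (log scale) with at least the number of cell cycle genes on the horizontal axis, for cardiomyocyte, fibroblast and macrophage nuclei, with 1 line per library; a line ends where no nucleus remains. In fibroblasts the Pkp2 cKO lines flatten beyond 5 members, with 13 and 18 nuclei at 10 or more, and the control lines end at 6 and 8 members; in macrophages all 4 lines flatten.

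The fibroblast class is made of different clusters in the 2 genotypes. A cluster led by Cilp, Ltbp2, Postn and Nox4 held 85.4% and 75.6% of Pkp2 cKO fibroblasts (543 and 1070 nuclei) and 12.3% and 5.86% of control fibroblasts (54 and 68 nuclei). A cluster led by Lvrn, Col6a6 and Scara5 held 13.8% and 17.7% of Pkp2 cKO fibroblasts and 87.7% and 94.1% of control fibroblasts. All 43 Pkp2 cKO fibroblast nuclei with 5 or more members lay in the Cilp and Postn cluster, at 3.31% and 2.34% of its Pkp2 cKO nuclei. In control libraries 0 of 54 nuclei of that cluster, which allows up to 5.56%, and 1 of 68 (1.47%) had 5 or more. At these control numbers a difference within the cluster was not detectable in nuclei with 5 or more members. Positive nuclei made up 9.76% and 10.7% of its Pkp2 cKO nuclei (53 of 543 and 114 of 1070). In control libraries they made up 7.41% and 2.94% (4 of 54 and 2 of 68 nuclei). The exact binomial interval of the first control share, 2.06% to 17.9%, covered both Pkp2 cKO shares. At 1000 UMIs the shares were 3.89% and 2.87% in Pkp2 cKO libraries. Control libraries then gave 2.22% and 1.47%, 1 of 45 and 1 of 68 nuclei. The control shares thus rest on 4 nuclei or fewer. The summed level within the cluster was 1182 and 996 CPM in Pkp2 cKO libraries and 495 and 566 CPM in control libraries, without overlap. Within the Scara5 cluster it was 660 and 504 CPM in Pkp2 cKO libraries and 569 and 522 CPM in control libraries, with overlap. The share of positive nuclei in the Scara5 cluster did not overlap, at 6.82% and 5.18% in Pkp2 cKO libraries and 1.04% and 2.56% in control libraries. At 1000 UMIs it was 1.89% and 1.73% in Pkp2 cKO libraries (1 of 53 and 4 of 231 nuclei). In control libraries it was 0.467% and 0.394% (1 of 214 and 4 of 1014 nuclei), so each share rests on 1 or 4 nuclei.

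Cardiomyocytes, the contractile cells of the heart, showed no tested member past the threshold. Of the 27 members tested, 0 rose and 0 fell by edgeR, against 1.32% of 15553 genes that rose and 1.61% that fell. At an unadjusted p under 0.05 there was 1 member in each direction, Aspm higher (log2 fold change 1.53, adjusted p = 0.195) and Cenpf lower. DESeq2 also called 0 in either direction, against 0.606% of genes called higher by DESeq2. Both Pkp2 cKO libraries lay above both control libraries for 8 members and below for 8, against 21.9% and 21% of all genes tested. Their median log2 fold change was 0.05. Cenpf came closest, with 10.3 and 5.39 normalized CPM in Pkp2 cKO cardiomyocytes and 19.5 and 16.4 in control cardiomyocytes (log2 fold change -1.23, adjusted p = 0.0827). The groups did not overlap for Cenpf, and its direction was opposite to that in fibroblasts. Top2a had 4.42 and 2.41 normalized CPM in Pkp2 cKO cardiomyocytes and 0.598 and 2.03 in control cardiomyocytes (log2 fold change 1.15 ± 0.56, adjusted p = 0.402). Mki67 had 2.58 and 1.60 normalized CPM in Pkp2 cKO cardiomyocytes and 1.60 and 1.29 in control cardiomyocytes (log2 fold change 0.52 ± 0.49, adjusted p = 0.734). These levels are in the range of a few molecules per library class, 14 and 14 UMIs of Mki67 in Pkp2 cKO and 8 and 14 in control libraries. Smc4, Pola1 and Ezh2, the members with the most cardiomyocyte RNA in their roles, had adjusted p-values of 0.958, 0.471 and 0.709. Kif15, Ccnb2 and Diaph3, which lead 3 further roles, had values of 0.37, 0.757 and 0.691. The 20 members not tested had between 6 and 42 UMIs over all libraries. Of them, Ccnb1 gave 19 UMIs in Pkp2 cKO and 3 in control cardiomyocytes, a depth-scaled ratio of 7.37 (counting interval 2.17 to 38.9). Kif4 gave 19 and 9 UMIs, a ratio of 2.46 (1.06 to 6.17). Bub1b, Ndc80, Ncapg, Cdk1, Aurka and Rrm2 lay on the lower side, with ratios from 0.291 (Aurka) to 0.997 (Cdk1). A single cardiomyocyte nucleus in each Pkp2 cKO library had 10 or more members, and 1 nucleus in the second control library. The richest cardiomyocyte nuclei held 29 and 22 members in Pkp2 cKO libraries and 5 and 11 in control libraries. How much of the small UMI counts above came from such single nuclei was not tested, and the counting intervals do not cover it.

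Cardiomyocytes also sat in different clusters by genotype. A cluster whose leading genes include Nppb, Ankrd1 and Myh7 held 68.6% and 70.3% of Pkp2 cKO cardiomyocytes and 14.2% and 13.8% of control cardiomyocytes, and a cluster whose leading genes include Pfkfb1 and Mylk4 held 7.49% and 9.67% of Pkp2 cKO and 67.0% and 74.7% of control cardiomyocytes. Outside the 47 genes, 3 cell cycle genes passed the test in cardiomyocytes. Btg2 rose, with 32.6 and 46.6 normalized CPM in Pkp2 cKO cardiomyocytes and 15.5 and 13.5 in control cardiomyocytes (log2 fold change 1.47, adjusted p = 0.0097). Tfdp2, a dimerization partner of E2F factors, fell to 252 and 290 normalized CPM in Pkp2 cKO cardiomyocytes, against 437 and 491 in control cardiomyocytes (log2 fold change -0.78, adjusted p = 0.0259). Sgo2a, a shugoshin that protects centromeric cohesion, fell to 31.3 and 31.6 normalized CPM in Pkp2 cKO cardiomyocytes, against 57.8 and 61.5 in control cardiomyocytes (log2 fold change -0.92, adjusted p = 0.0168). They were 1 of 11 inhibitors, 1 of 9 transcription factors and 1 of 39 further G2 and M phase genes tested. Cdkn1a had 15.7 and 16.3 normalized CPM in Pkp2 cKO cardiomyocytes and 10.4 and 10.2 in control cardiomyocytes (log2 fold change 0.63 ± 0.22, adjusted p = 0.208).

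Macrophages had the highest level of the 47 genes per 1000000 UMIs in either genotype, and there the difference ran the other way. Their summed level was 1433 ± 23.0 CPM in Pkp2 cKO libraries and 1897 ± 111 CPM in control libraries (SD, n = 2 each), a ratio of 0.755. Not every role was lower. The ratio was 1.16 for the cyclins and mitotic kinases and 1.07 for the replication members. For the other roles it lay between 0.666 and 0.748. Of 38 members tested 3 fell and 1 rose, against 0.762% of 11022 genes that fell and 1.01% that rose. Mki67 fell to 63.2 and 89.7 normalized CPM in Pkp2 cKO macrophages, against 156 and 177 in control macrophages (log2 fold change -1.12 ± 0.27, adjusted p = 0.0428). Kif23 fell to 39.9 and 51.0 normalized CPM, against 118 and 102 in control macrophages (-1.23, adjusted p = 0.0346). Kif20b, a kinesin of late mitosis, fell to 30.7 and 38.7 normalized CPM, against 82.7 and 92.2 in control macrophages (-1.33, adjusted p = 0.0274). In all 3 genes the groups did not overlap. When any 1 of the 4 libraries was left out at most 1 member was called lower. DESeq2 called 0 members lower and 1 higher, against 0.225% of genes called higher. Ncapg2, a subunit of condensin II, was the member that rose, with 78.0 and 61.7 normalized CPM in Pkp2 cKO macrophages and 19.1 and 12.6 in control macrophages (log2 fold change 2.25 ± 0.39, adjusted p = 0.0047). Top2a had 105 and 97.9 normalized CPM in Pkp2 cKO macrophages and 121 and 149 in control macrophages (log2 fold change -0.44 ± 0.26, adjusted p = 0.53). Cenpe had 38.1 and 52.0 in Pkp2 cKO macrophages and 105 and 87.0 in control macrophages normalized CPM, with an adjusted p of 0.0927. Ccnb2, Pola1 and Ezh2, which lead roles with no member past the threshold, had adjusted p-values of 0.554, 0.984 and 0.227. Of the 38 members, 13 had both Pkp2 cKO libraries below both control libraries and 4 above, against 20.3% and 22.4% of all genes tested. Cdkn1a did not pass the test in macrophages (79.9 and 65.2 normalized CPM in Pkp2 cKO, 66.8 and 51.4 in control, log2 fold change 0.34 ± 0.30, adjusted p = 0.729), and of the 121 other cell cycle genes tested there 0 rose and 0 fell.

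The macrophage class, too, was made of different clusters. A cluster led by Cd163, F13a1 and Timd4, genes of long-lived resident macrophages, held 29.2% and 46.3% of Pkp2 cKO macrophages and 71.4% and 72.2% of control macrophages. A cluster led by Cd300lf, Gpnmb, Ccr2 and Spp1, genes that include the receptor of recruited monocytes, held 68.5% and 49.6% of Pkp2 cKO macrophages and 28.2% and 26.6% of control macrophages. Within the Cd163 and Timd4 cluster the summed level was 1914 and 1707 CPM in Pkp2 cKO libraries and 2086 and 2303 CPM in control libraries. Within the Ccr2 and Spp1 cluster it was 1301 and 1343 CPM in Pkp2 cKO libraries and 1380 and 1437 CPM in control libraries. Both clusters thus kept the direction, with a smaller gap than in the class as a whole, and the cluster with the higher level made up less of the Pkp2 cKO class. How much of the class difference follows the makeup was not tested. Macrophage nuclei with 5 or more members carried fibroblast markers at 5696 and 2010 CPM in Pkp2 cKO libraries and 1021 and 608 CPM in control libraries. In macrophage nuclei with under 3 members these markers stood at 2455 and 990 CPM in Pkp2 cKO libraries and 1989 and 1364 CPM in control libraries. The part of these markers in the macrophage values was not tested.

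Endothelial and mural nuclei showed no member past the threshold. In endothelial nuclei 0 of 33 members tested rose and 0 fell by edgeR, against 0.286% and 0.779% of 11550 genes; at an unadjusted p under 0.05 there were 1 higher and 4 lower. DESeq2 called 0 members, against 0.137% of genes called higher. The libraries did not overlap for 3 members that were higher and 7 that were lower, against 21.1% and 20.5% of all genes tested. Mki67 had 30.9 and 27.8 normalized CPM in Pkp2 cKO endothelial nuclei and 99.6 and 31.7 in control nuclei (log2 fold change -0.97 ± 0.40, adjusted p = 0.327). Top2a had 29.5 and 29.6 normalized CPM in Pkp2 cKO endothelial nuclei and 76.3 and 33.7 in control nuclei (-0.74 ± 0.34, adjusted p = 0.42). Smc4 had 247 and 260 normalized CPM in Pkp2 cKO endothelial nuclei and 405 and 305 in control nuclei (-0.47, adjusted p = 0.423). Cenpf, Kif20b, Diaph3, Ccna2, Pola1 and Ezh2, the members with the highest mean in the other roles, had adjusted p-values from 0.611 to 0.977. For Mki67 and Top2a the first control library stood far above the other 3, and it holds only 345 endothelial nuclei. A cluster of 32 nuclei, counted as endothelial and led by cell cycle genes although the 47 were left out of clustering, had 9 and 14 nuclei in Pkp2 cKO libraries and 4 and 5 in control libraries, all of them positive. These were 0.978% and 0.688% of Pkp2 cKO and 1.16% and 0.538% of control endothelial nuclei, with overlap. In mural nuclei 0 of 14 members tested rose and 0 fell, against 0.147% and 0.0629% of 9534 genes; 1 was higher at an unadjusted p under 0.05, and DESeq2 called 0. The libraries did not overlap for 1 member that was higher and 3 that were lower, against 17.5% and 17.4% of all genes tested. Top2a had 78.0 and 21.2 normalized CPM in Pkp2 cKO mural nuclei and 18.9 and 19.7 in control nuclei (log2 fold change 1.12 ± 0.49, adjusted p = 0.751). Mki67 had 83.3 and 11.1 normalized CPM in Pkp2 cKO mural nuclei and 34.0 and 17.6 in control nuclei (0.75 ± 0.52, adjusted p = 0.945). For these 2 genes the Pkp2 cKO mural libraries thus differed from each other by more than the group means did. Cenpe, Kif20b, Diaph3, Smc4, Pola1 and Ezh2, which lead the other roles tested, had adjusted p-values from 0.981 to 1.00. Cdkn1a had adjusted p-values of 0.971 in endothelial and 0.999 in mural nuclei, and no other cell cycle gene of the 5 further lists passed the test in either class.

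**Figure D5:**
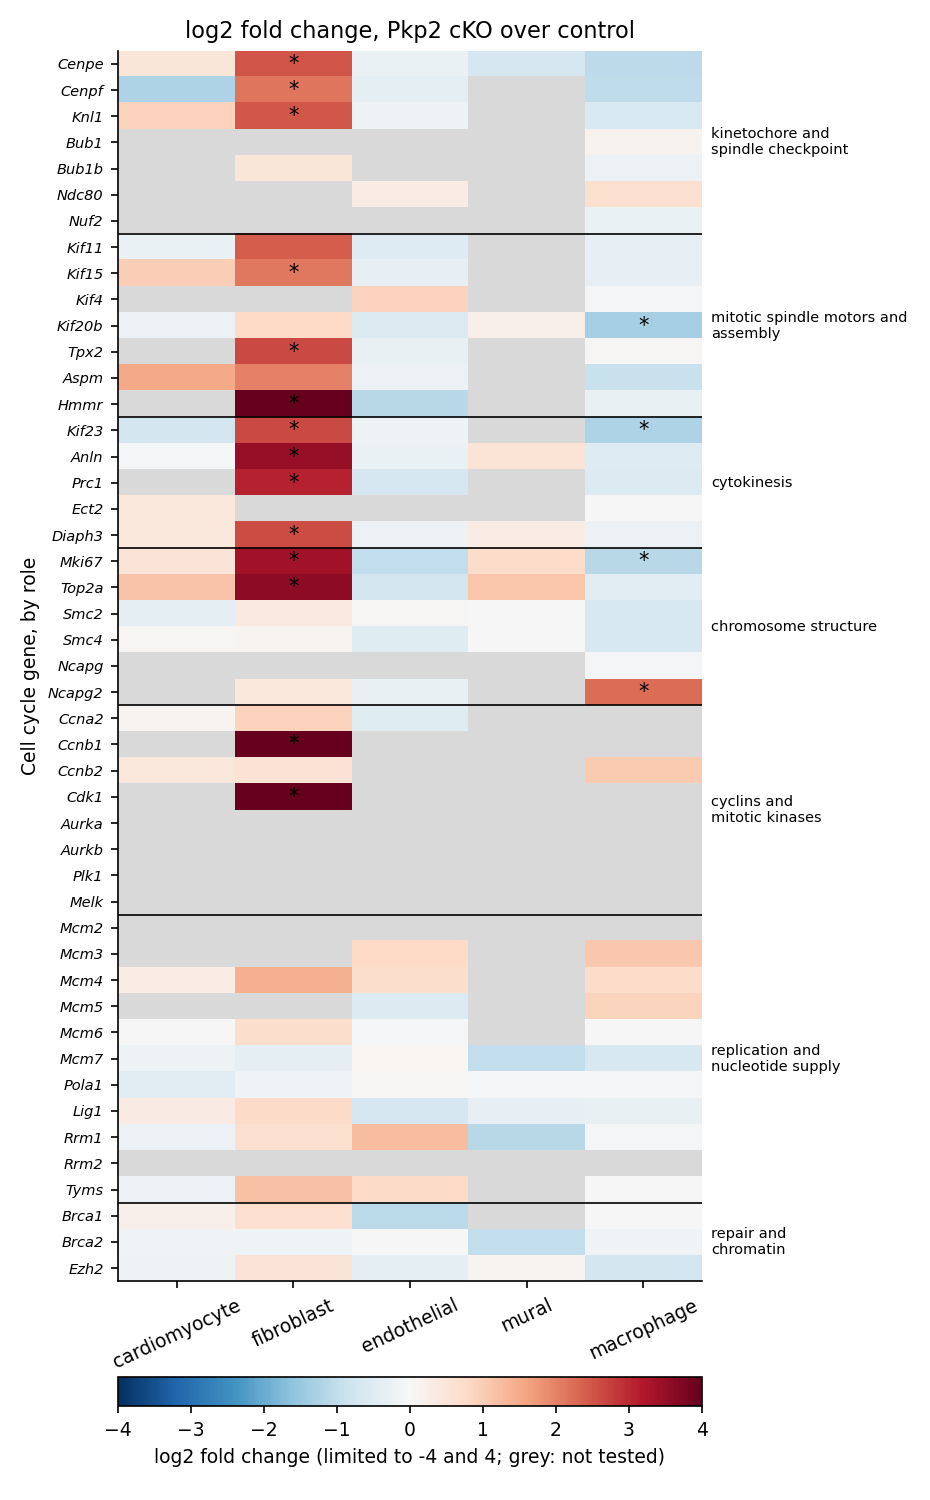
Log2 fold change of each of the 47 genes, Pkp2 cKO over control, in 5 cell classes (colour, capped at both ends of the scale), with genes grouped by role. Grey marks genes not tested, and an asterisk an adjusted p under 0.05 by edgeR. There are 14 asterisks in fibroblasts, 4 in macrophages (1 higher, 3 lower) and 0 in cardiomyocytes, endothelial and mural nuclei.

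Whether the genotype effect differed between classes was tested directly, as an interaction with cardiomyocytes in 1 edgeR model per pair of classes. Both classes of a pair came from the same 4 libraries, and library was a block in that model. Between fibroblasts and cardiomyocytes the effect differed for 13 of 44 members tested, in each case toward higher in fibroblasts, against 3.78% of 16400 genes in that direction and 3.17% in the other. Top2a (difference in log2 fold change 2.70, adjusted p = 0.0017), Mki67 (2.88, adjusted p = 0.0043) and Diaph3 (2.30) were among them. So were Ezh2 (0.72) and Tyms (1.37), which did not pass within fibroblasts alone. Cdk1, Hmmr and Aurka were also among them, with 53, 58 and 14 UMIs in Pkp2 cKO fibroblasts and 0 in control fibroblasts. Members this low in control fibroblasts could pass the low-count filter through Pkp2 cKO fibroblasts alone, so the 13 are given as a description. Between macrophages and cardiomyocytes 3 of 47 members differed, all toward lower in macrophages (Aspm, Mki67 and Top2a), against 1.61% of 16552 genes that were lower and 1.7% that were higher. Of the 3, only Mki67 also passed the test within macrophages. In cardiomyocytes Aspm gave 35 UMIs in Pkp2 cKO and 14 in control libraries, and Top2a 45 and 25. Their depth-scaled ratios there were 2.91 and 2.09, so both differences also hold a higher Pkp2 cKO value in cardiomyocytes. Between endothelial nuclei and cardiomyocytes 1 of 44 members differed toward higher (Cenpf) and 1 toward lower (Top2a), against 1.89% and 2.55% of 16366 genes. Leaving out any 1 library left 2 to 8 members called in fibroblasts, 0 to 2 in endothelial nuclei and 0 to 3 in macrophages. DESeq2 called 1 interaction in fibroblasts, 0 in endothelial nuclei and 0 in macrophages, against 0.396%, 0.179% and 0.156% of genes called higher. Cenpf enters 2 of these lists with a cardiomyocyte value that was itself lower in Pkp2 cKO libraries.

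The positive nuclei were also set against the other nuclei of their class, with library as a block, for cell cycle genes that the rule did not use. Only cardiomyocytes, endothelial nuclei and macrophages had 10 or more positive nuclei in every library. Genes low in the other nuclei could pass the low-count filter through the positive nuclei alone, so the counts are given as a description. In macrophages 40 of 41 tested genes of the further G2 and M phase list and 14 of 20 of the further S phase list were higher in positive nuclei, against 3.37% of 7069 genes. Neil3, a DNA glycosylase of S and G2 phase, had a log2 difference of 6.96, and Foxm1, the transcription factor of the G2 and M phase program, one of 5.22. In endothelial nuclei 32 of 38 and 5 of 12 were higher, against 2.52% of 7109 genes, with Foxm1 at 4.91. In cardiomyocytes 1 of 24 and 1 of 22 were higher, against 0.259% of 11955 genes: Ckap2, with a log2 difference of 4.04, and Tk1, thymidine kinase, with 3.20. Positive nuclei were deeper than the rest, with median depths of 6764 and 8139 UMIs in Pkp2 cKO cardiomyocytes and 4817.5 and 6696.5 in control cardiomyocytes, and how far depth alone makes a cardiomyocyte nucleus positive was not tested. Ccnd3, a G1 cyclin, was lower in positive macrophage nuclei (log2 difference -0.90), and no other gene of the 5 lists was lower in any of the 3 classes.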

How the data were processed

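Nuclei of 4 libraries (2 Pkp2 cKO, 2 control; each a pool of 2 mice) were profiled. The deposited matrices held raw UMI counts per gene and barcode, with no normalization; per the submitters' processing notes the build was mm10, and which aligner, counter and annotation were used is not stated in the sources. Nuclei were stained for a nuclear pore protein and sorted, per the labels' protocols, which also describe a NeuN gate. Which gate each library passed is unclear, and a gate can set class shares.

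Barcodes with at least 300 genes, at least 500 UMIs and at most 5% mitochondrial counts were kept, and the 0.5% with the most UMIs were removed. The automatic Scrublet threshold marked under 0.5% of barcodes in 3 libraries, so the 6% with the highest doublet scores were removed from each. Nuclei were clustered with scanpy 1.11.5 and leidenalg 0.10.2 (2000 variable genes, 30 components, 15 neighbours, resolution 1) without cell cycle genes, and a cluster was named from at least 3 markers. The details of the naming rule were set after seeing the data.

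Counts were summed per library and class, with at least 10 nuclei in each, and tested with edgeR 4.0.16 (R 4.3.3, quasi-likelihood, TMM normalization, filter on low counts, Benjamini-Hochberg adjustment over all genes tested at 0.05); DESeq2 1.42.0 was an alternative. The tests between genotypes ran without a replicate block, since nothing in the labels pairs the pools; interactions, and positive nuclei against the rest, had library as a block. CPM is UMIs per 1000000 UMIs of the class in a library, and normalized CPM uses TMM-scaled totals. Each test was checked on simulated data. The genes changed there all lay above a minimum mean count, so the check does not cover genes with few counts. Nothing says whether replicates are more than separate pools, so p-values measure the spread between these libraries. Intervals and floors (3 counts) cover counting error only.

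Named genes were all members past the threshold, the highest member of each role without one, up to 4 genes per further list with the smallest p, and Mki67, Top2a and Cdkn1a in every class. Ect2, Kif11, Aspm and Tyms in fibroblasts were named after their values were seen. A gene that the rule names is not reported here. The members and lists were chosen with earlier results of these data known. Of the 47 genes, 25 overlap another annotated gene, 6 of them a protein-coding gene on the other strand (among them Prc1, Ccna2 and Mcm7), and the counting's use of strand is not given.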

Additional observations from a re-analysis of the deposited data

Results flagged for a closer look

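Differences in the genotype effect between classes, tested as interactions with edgeR, were picked out for 18 pairs of gene and class. The values are differences in log2 fold change against cardiomyocytes. In fibroblasts they were 2.70 for Top2a, 2.88 for Mki67, 2.30 for Diaph3, 3.38 for Cenpf, 3.41 for Kif23, 3.74 for Anln, 2.13 for Cenpe, 2.82 for Kif11, 1.37 for Tyms and 0.72 for Ezh2. Cdk1 (8.49), Aurka (8.18) and Hmmr (7.42) were also picked out in fibroblasts; their fitted values depend on control fibroblast counts at or near 0 and are no measure of size. In endothelial nuclei they were 1.01 for Cenpf and -1.60 for Top2a. In macrophages they were -2.36 for Aspm, -1.57 for Mki67 and -1.46 for Top2a. Adjusted p-values ran from 6.83e-11 (Cenpf, fibroblasts) to 0.0493 (Cenpe, fibroblasts).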

How the results depend on the processing

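With cell cycle genes kept for clustering, fibroblasts gave 0 higher (14 in the analysis reported), macrophages 0 lower, the fibroblast interaction 2, the endothelial 1, the macrophage 0, and cardiomyocyte pathway genes 1. There Mki67 (-0.32), Kif23 (-0.23) and Cenpe (-0.11) reversed in fibroblasts, as did the interactions of Cenpe (-0.22), Hmmr (-0.10) and Top2a (-0.0077) in fibroblasts and of Top2a in endothelial nuclei (0.89) and macrophages (0.55). With a mitochondrial limit of 1%, the counts were 1 higher in fibroblasts (49 and 146 Pkp2 cKO and 20 and 99 control nuclei were left), 0 higher and 0 lower in macrophages, 1 lower in cardiomyocytes, interactions of 2, 0 and 0, and 0 cardiomyocyte pathway genes. With DESeq2 they were 6 higher in fibroblasts, 0 lower in macrophages, interactions of 1, 0 and 0, and pathway genes of 4, 84 and 95 in positive cardiomyocytes, endothelial nuclei and macrophages. With a limit of 20% they were 23 in fibroblasts, interactions of 20 and 5 (fibroblasts, macrophages), and pathway genes of 93 and 97 in positive endothelial nuclei and macrophages. Without the low-count filter 1 member was lower in cardiomyocytes, interactions were 1 (endothelial) and 1 (macrophage), and pathway genes 5, 89 and 106. The automatic doublet threshold gave 0 lower in macrophages and interactions of 1 (endothelial) and 0 (macrophage). Keeping the nuclei with the most UMIs gave 1 lower in macrophages and an endothelial interaction of 1. Requiring 1000 UMIs gave 1 endothelial and 1 macrophage interaction. No doublet removal and leaving out the cluster led by cell cycle genes (an alternative chosen after seeing the data) each gave 1 endothelial interaction, and resolution 2 gave 0 and 39 macrophage pathway genes.

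The replicate numbers are shared by the groups but pair nothing in the labels. With a replicate block, 1 member was higher and 2 lower in cardiomyocytes, 1 higher and 3 lower in endothelial nuclei, 7 lower in macrophages, and 18 higher in fibroblasts. Same-numbered samples deviated together with correlations from 0.245 to 0.507 over genes, with 2 pairs only.

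Leaving out 1 library, with the lone sample assumed to vary like the others, gave 5 to 16 higher in fibroblasts, 0 to 1 lower in cardiomyocytes, 0 to 2 lower in endothelial nuclei, 0 to 1 higher in mural nuclei, and 0 to 1 higher and 0 to 1 lower in macrophages. Interactions ranged over 2 to 8, 0 to 2 and 0 to 3 in fibroblasts, endothelial nuclei and macrophages, and pathway genes over 1 to 3 and 30 to 66 in cardiomyocytes and endothelial nuclei.

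The fibroblast log2 ratio of the share of positive nuclei (2.07) was 2.89 at the 1% limit, 1.16 with cell cycle genes kept, 0.68 at 2000 UMIs, 1.09 and 3.87 with at least 2 and 5 members, and 2.91 without the replication and repair members. Its level ratio (0.90) was 2.07, 0.22 and 1.31 at the 1% limit, with cell cycle genes kept and without Smc4. The all-nuclei share ratio (1.01) was 0.50 at the 1% limit and 1.58 at 2000 UMIs. The cause of these moves was not tested. Depth limits the share of positive nuclei.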

Other observations

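Lymphatic endothelial nuclei, which take no part in the comparisons above, had a summed level of 1224 and 727 CPM in Pkp2 cKO libraries and 706 and 530 CPM in control libraries. Of them, 15 of 87 and 22 of 163 were positive in Pkp2 cKO libraries and 1 of 28 and 7 of 84 in control libraries.

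Lymphocytes, with 18 and 51 nuclei in Pkp2 cKO libraries and 13 and 43 in control libraries, had 962 and 1330 CPM in Pkp2 cKO libraries and 1092 and 1284 CPM in control libraries. Barcodes removed as likely doublets were positive in 9.91% and 15.9% in Pkp2 cKO libraries and 10.1% and 10.7% in control libraries.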
